A study of Mus musculus with 6 samples.

Results

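Steroid and prolactin receptors of mouse granulosa cells, with an inhibitor of nuclear receptors and a receptor chaperone, were followed through 9 genes of the 54551 features measured. The genes were given by name, not by their values: the oestrogen receptors Esr1 and Esr2, the glucocorticoid receptor Nr3c1, the mineralocorticoid receptor Nr3c2, the membrane progesterone receptor components Pgrmc1 and Pgrmc2, the co-regulator Nrip1, the chaperone partner Fkbp5 and the prolactin receptor Prlr. Each name matched 1 feature of the deposited tables. Granulosa cells line the ovarian follicle, feed the oocyte and make oestradiol and progesterone. The cells came from C57BL/6 mice on postnatal day 21, and 3 libraries were labelled Gm12840-/- and 3 were labelled wild type (WT). Mice of both labels had 5 IU of PMSG, a gonadotropin that makes follicles grow, for 48 h. They then had 5 IU of hCG, a substitute for the luteinizing hormone surge before ovulation, for 6 h, so every library was taken after that stimulus and none before it. Which bases of Gm12840, a long noncoding RNA gene, were deleted is not given in the sources used here. Whether each library is a separate animal is not in the labels, so p-values here measure only the spread between these samples.

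Nuclear steroid receptors are transcription factors that wait with heat shock chaperones until a hormone binds them, then sit on DNA with co-activators or co-repressors. Pgrmc1 and Pgrmc2 are haem-binding membrane proteins of another family, tied to progesterone action on ovarian cells. The prolactin receptor is a cytokine receptor at the cell surface that signals through Jak2 and Stat5, and in rodents prolactin sustains the corpus luteum that granulosa cells form after ovulation. In the mouse ovary, Esr2 is known as the oestrogen receptor of granulosa cells and Esr1 as that of theca and interstitial cells. Female mice that lack Nrip1 or Prlr are infertile or subfertile, and mice that lack Esr2 ovulate poorly.

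The recovered depth was 16392098 to 17020427 reads in the libraries labelled Gm12840-/- and 16609477 to 19465847 reads in those labelled WT. Gm12840 itself was at 0.426, 0.611 and 1.45 FPKM (fragments scaled to gene length and library size) in the libraries labelled Gm12840-/- 1, 2 and 3, against 1.83, 0.566 and 0.365 FPKM in those labelled WT 1, 2 and 3. These values overlapped and rested on 5, 7 and 14 reads against 17, 6 and 5 reads, so the deposited values do not separate the labels at the targeted gene. Reads from mitochondrially encoded genes made up 1.52%, 4.19% and 0.146% of the libraries labelled Gm12840-/- 1, 2 and 3, against 0.227%, 0.311% and 2.08% in those labelled WT 1, 2 and 3. Ribosomal protein genes ran the other way, with 6.33%, 3.75% and 12.6% against 13.6%, 9.87% and 4.67%. The first principal component of all tested genes held 83.3% of the variance, and it set Gm12840-/- 2, WT 3 and Gm12840-/- 1 at one end and the other 3 libraries at the other. The 12 granulosa markers (among them Foxl2, Fshr, Inha and Amh) summed to 4939 to 9655 FPKM in the libraries labelled Gm12840-/- and 6683 to 12511 FPKM in those labelled WT, and none was at 0 in all libraries.

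No member was called different between the labels. Of the 9 genes, 7 passed the filter of more than 1 FPKM in at least 3 libraries, and 0 of these 7 were called at an adjusted p of 0.05 by limma on log2(FPKM + 1). The same held for 0 of all 12495 genes tested, a background of 0%. At an unadjusted p under 0.05 there were again 0 members, beside 0.728% of all genes tested, and limma-voom on the recovered reads called 0 genes and had 72 at an unadjusted p under 0.05. The 2 members under the filter, Esr1 and Nr3c2, were read from the fit without a filter, which also called 0% of its 29484 genes. The groups overlapped in all 9 members, where they did not overlap in 3.53% of the genes tested. Of the 7 tested members, 5 had a log2 fold change of Gm12840-/- over WT above 0 and 2 one below 0, with a median of 0.02 beside -0.04 over all genes tested. The width of the intervals limits what could be seen: the median 95% interval over all tested genes ran 0.73 to either side on the log2 scale.

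**Figure D1:**
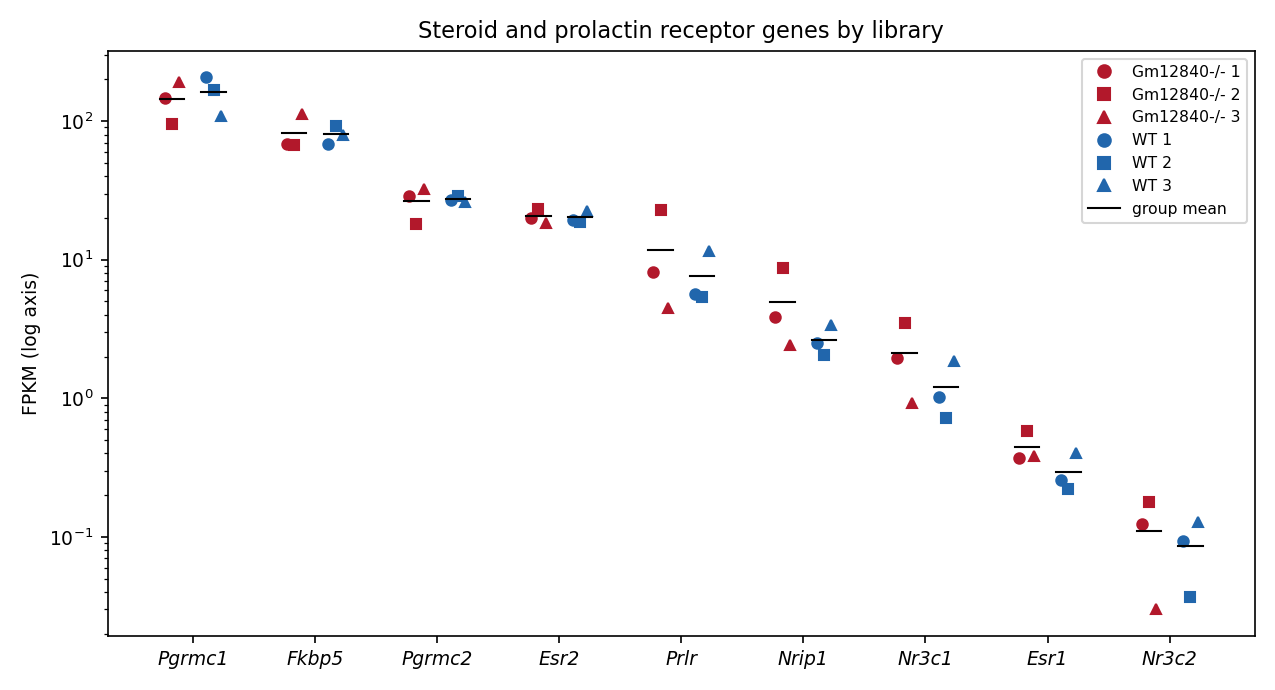
FPKM (vertical log axis) of the 9 genes, ordered by their mean over 6 libraries. Red points are the libraries labelled Gm12840-/-, blue points those labelled WT, marker shape is the replicate number and black bars are group means; the 2 colours overlap at every gene, and the levels run from 207 FPKM for Pgrmc1 to 0.0301 FPKM for Nr3c2.

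By mean FPKM, a level per length of gene, the order was Pgrmc1, Fkbp5, Pgrmc2, Esr2, Prlr, Nrip1, Nr3c1, Esr1 and Nr3c2. With the deposited lengths, each gene stood above the next in 6 of 6 libraries except Pgrmc2, which stood above Esr2 in 5 of 6. The ranges over the libraries were apart only between Fkbp5 and Pgrmc2, between Nr3c1 and Esr1 and between Esr1 and Nr3c2, and those of the other neighbours in the order overlapped. For 7 of the 9 the deposited length equalled all exons annotated in GENCODE M21 joined together, which is longer than a single transcript and lowers the FPKM where a gene has many alternative exons. Esr1, for example, has a deposited length of 13661 bases and a longest annotated coding transcript of 6339 bases. For Fkbp5 these were 6363 and 3858 bases and for Prlr 15339 and 9900 bases, while Pgrmc1 had 1857 bases by both. The order of neighbours with overlapping ranges can therefore depend on the length used, and was not tested with other lengths.

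Promoter sequence is shown for Prlr and Nrip1, which were high in the same libraries, for Pgrmc1, which ran the other way, and for Fkbp5, which followed neither closely. The windows run from 250 bases before to 50 bases after a start site, 5′ to 3′ on the strand of the gene, from RefSeq on GRCm38.p6. Such windows were found for 8 of the 9 genes, all but Nr3c1, with 12 windows in all. Capitals mark the GC box GGGCGG, the site of Sp1-type factors, and the box CCAAT, the site of NF-Y, on either strand.
Prlr chr15:10176988-10177287: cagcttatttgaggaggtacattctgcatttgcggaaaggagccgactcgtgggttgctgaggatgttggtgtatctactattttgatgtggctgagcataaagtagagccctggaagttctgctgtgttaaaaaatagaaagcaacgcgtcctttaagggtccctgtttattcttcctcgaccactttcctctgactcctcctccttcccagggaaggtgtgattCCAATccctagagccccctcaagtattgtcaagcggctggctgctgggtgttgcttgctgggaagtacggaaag
Nrip1 chr16:76373000-76373299: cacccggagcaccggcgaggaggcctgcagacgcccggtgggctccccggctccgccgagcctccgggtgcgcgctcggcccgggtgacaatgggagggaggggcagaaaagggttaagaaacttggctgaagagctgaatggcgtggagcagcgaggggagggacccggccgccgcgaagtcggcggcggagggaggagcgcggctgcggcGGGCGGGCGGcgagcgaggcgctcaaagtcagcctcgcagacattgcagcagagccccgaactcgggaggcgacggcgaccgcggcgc
Pgrmc1 chrX:36597943-36598242: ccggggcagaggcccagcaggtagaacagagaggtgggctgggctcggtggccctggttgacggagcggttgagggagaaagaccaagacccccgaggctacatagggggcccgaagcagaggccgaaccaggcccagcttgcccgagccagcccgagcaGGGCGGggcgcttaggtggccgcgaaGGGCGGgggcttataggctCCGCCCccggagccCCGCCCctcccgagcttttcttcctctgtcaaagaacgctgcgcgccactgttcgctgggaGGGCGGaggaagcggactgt
Fkbp5 chr17:28486100-28486399: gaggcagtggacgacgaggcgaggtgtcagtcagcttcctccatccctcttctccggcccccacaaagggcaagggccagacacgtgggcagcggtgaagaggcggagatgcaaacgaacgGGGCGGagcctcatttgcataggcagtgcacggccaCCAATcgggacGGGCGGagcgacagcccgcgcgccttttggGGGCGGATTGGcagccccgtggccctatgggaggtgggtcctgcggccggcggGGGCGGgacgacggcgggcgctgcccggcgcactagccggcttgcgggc
The strand is plus for Prlr and Pgrmc1 and minus for Nrip1 and Fkbp5. The Prlr window, at its first start site, held 0 GC boxes and 1 CCAAT box, with 8 CpG dinucleotides and a GC content of 49.3%. The Nrip1 window held 2 overlapping GC boxes, 40 CpG and 73.3% GC. Pgrmc1 had 5 GC boxes, 24 CpG and 69.0% GC in its window, and Fkbp5 had 4 GC boxes, 2 CCAAT boxes, 32 CpG and 70.7% GC. The median of all 32851 windows was 7 CpG and 52.7% GC, so the Prlr window shown lay near the median and the other 3 shown were rich in CpG. At other start sites, Nrip1 had a window with 6 CpG and 52.7% GC. Prlr had others with 2 and 4 CpG and 45.7% and 35.3% GC. GC boxes were found in 35.7% of all windows and in 5 of the members' 12, and CCAAT in 37.4% of all windows and in 6 of the members' 12. The element that glucocorticoid and progesterone receptors share (AGAACA, any 3 bases, then TGTTCT) was in 0 member windows and in 0.00913% of all windows. The oestrogen element (GGTCA, any 3 bases, then TGACC) was in 0 member windows and 0.07% of all windows. AGAACA alone was in 2 member windows, of Prlr and Pgrmc1, and in 19.0% of all windows. The STAT motif TTCNNNGAA was in 2 member windows, of Esr1 and Prlr, and in 8.30% of all windows. The Prlr hits of AGAACA and of the STAT motif were in a Prlr window not shown, chr15:10223656-10223955. CAAGGTCA, the NR5A motif, and TGACGTCA, the cAMP element, were in 0 member windows, and in 1.56% and 1.79% of all windows. All motifs were searched on both strands.

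Esr2 was the steadiest of the members. It lies on chromosome 12, from 76120419 to 76177259 on the minus strand in mm10. Its level was 20.1, 23.1 and 18.5 FPKM in the libraries labelled Gm12840-/- 1, 2 and 3, against 19.2, 18.9 and 22.6 FPKM in those labelled WT 1, 2 and 3. The highest and the lowest library both carried the Gm12840-/- label, and their ratio was 1.25, beside a median of 2.34 over all tested genes. Esr2 averaged 20.5 ± 2.31 FPKM in the libraries labelled Gm12840-/- and 20.2 ± 2.08 FPKM in those labelled WT (SD, n = 3 each). The log2 fold change was 0.02, with 95% bounds of -0.48 and 0.52 (limma, adjusted p = 0.994). The processed pseudogene Gm7862 lies within the Esr2 locus on the same strand, shares 0 exon bases with it and drew 24 to 71 reads per library, beside 960 to 1664 reads for Esr2.

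Esr1 (chromosome 10, 4611593 to 5005614, plus strand) was low in these libraries and did not pass the filter. Its level was 0.368, 0.585 and 0.380 FPKM in the libraries labelled Gm12840-/-, on 94, 146 and 80 reads, against 0.256, 0.221 and 0.406 FPKM in those labelled WT, on 52, 51 and 121 reads. The 3 Gm12840-/- libraries all stood above WT 1 and 2, and Gm12840-/- 1 and 3 stood below WT 3. Without a filter the log2 fold change of FPKM + 1 was 0.16, with 95% bounds of -0.12 and 0.44 (limma, adjusted p = 0.958). At levels as low as these, that scale understates changes, and its bounds do not apply to a ratio of reads. The log2 fold change was 0.47 with a pseudocount of 0.1 (limma, adjusted p = 0.968) and 0.58 by limma-voom (adjusted p = 0.957). Over the pooled reads, scaled as the authors scaled the libraries, the ratio of Gm12840-/- to WT was 1.46, with bounds of 1.23 and 1.74 that cover counting error only and not the spread between libraries.

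Theca and stroma, the compartments where Esr1 is best known, were followed beside it. Theca and interstitial markers (Cyp17a1, Insl3, Ptch1, Hhip and 8 others) summed to 114 to 142 FPKM in the libraries labelled Gm12840-/- and 96.2 to 177 FPKM in those labelled WT, and 9 of 10 tested had a positive log2 fold change, with a median of 0.28. Lhcgr, also on the list of oestrogen receptor targets, was the largest term of this sum in every library. It was at 41.0, 68.6 and 46.2 FPKM against 87.6, 46.3 and 46.5 FPKM. Markers of stroma, pericytes and smooth muscle (Col1a1, Dcn, Acta2, Pdgfrb and 8 others) summed to 87.7 to 114 FPKM and 62.0 to 119 FPKM, with 8 of 8 tested positive and a median of 0.42. The groups did not overlap in 2 of these 8, Col1a2 and Pdgfrb, nor in 1 of 9 tested endothelial markers, Eng. They did not overlap in 3.53% of all genes tested, and whether the markers differ from that share was not tested. All 3 markers were higher in the libraries labelled Gm12840-/-. Eng had an unadjusted limma p of 0.0488 and an adjusted p of 0.993. An unadjusted p under 0.05 was found for 0.728% of all genes tested, and 45.0% of all genes tested had a positive log2 fold change. Ptch1, Hhip, Col1a1 and Dcn stood higher in each library with 1.52% or more mitochondrial reads than in any other library. The other theca and stroma markers named, Cyp17a1, Insl3, Lhcgr, Acta2, Col1a2 and Pdgfrb, did not. Of the other lists, the median log2 fold change was 0.04 for endothelial, 0.0041 for leukocyte, -0.30 for oocyte, -0.88 for erythroid and -0.28 for surface epithelium markers. None of these markers was called or at 0 in all libraries. Their part in the level of Esr1 was not tested. In bulk RNA such as this, fewer cells of a type and less RNA per cell cannot be told apart.

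Within each library, Esr2 stood far above Esr1. The ratio of Esr2 to Esr1 FPKM was 54.5, 39.4 and 48.7 in the libraries labelled Gm12840-/- 1, 2 and 3, against 75.0, 85.4 and 55.8 in those labelled WT 1, 2 and 3. The groups did not overlap, but Gm12840-/- 1, with an exact 95% interval of 44.2 to 67.9 from its reads, and WT 3, with 46.4 to 67.7, could not be distinguished at this depth. The mean difference was -0.59 on the log2 scale, and the exact two-sided permutation test gave p = 0.1, the smallest that 3 against 3 libraries allow, or 0.3 adjusted over the 3 pairs of genes compared. The geometric mean ratio over the 6 libraries was 57.8 with the deposited lengths and 26.9 with the longest annotated coding transcripts, so the size of the gap between the receptors depends on the length used, while the difference between the labels does not.

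Pgrmc1 (chromosome X, 36598206 to 36606079, plus strand) had the highest level of the 9. It was at 148, 95.3 and 193 FPKM in the libraries labelled Gm12840-/-, against 207, 169 and 110 FPKM in those labelled WT. Gm12840-/- 2 and WT 3, the libraries with the most mitochondrial reads, were the lowest, and the highest library stood 2.17 times above the lowest. Pgrmc1 averaged 145 ± 48.9 FPKM in the libraries labelled Gm12840-/- and 162 ± 49.1 FPKM in those labelled WT (SD, n = 3 each). The log2 fold change was -0.16, with 95% bounds of -1.11 and 0.79 (limma, adjusted p = 0.993). Pgrmc2 (chromosome 3, 41066326 to 41083046, minus strand) was at 29.0, 18.2 and 32.6 FPKM, against 27.2, 28.7 and 25.9 FPKM in the libraries labelled WT. Only Gm12840-/- 2 stood apart, below the other 5 libraries. Its log2 fold change was -0.07, with 95% bounds of -0.72 and 0.58 (limma, adjusted p = 0.993). The ratio of Pgrmc1 to Pgrmc2 was 5.10, 5.22 and 5.92 against 7.62, 5.88 and 4.23, so the 3 WT ratios lay on both sides of the Gm12840-/- ones. The difference was -0.09 on the log2 scale (exact permutation p = 0.8, adjusted 0.8), and 0.12 without WT 1.

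Nr3c1 (chromosome 18, 39410545 to 39491301, minus strand) was at 1.95, 3.50 and 0.927 FPKM in the libraries labelled Gm12840-/- 1, 2 and 3, against 1.02, 0.725 and 1.86 FPKM in those labelled WT 1, 2 and 3. Gm12840-/- 2 was the highest, with Gm12840-/- 1 and WT 3 next, and the span was 4.83-fold. The log2 fold change was 0.45, with 95% bounds of -0.41 and 1.32 (limma, adjusted p = 0.993). Nr3c2 (chromosome 8, 76899442 to 77245012, plus strand) binds both aldosterone and glucocorticoids and was the lowest member, at 0.124, 0.177 and 0.0301 FPKM against 0.0936, 0.0366 and 0.127 FPKM. These values rested on 15, 21 and 3 reads against 9, 4 and 18 reads. The pooled ratio of Gm12840-/- to WT was 1.29, with a counting interval of 0.782 to 2.13, so no difference was detectable at this depth. The antisense gene Gm10649, which shares 247 exon bases with Nr3c2, had 0 reads in every library.

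In each library Nr3c1 stood above Nr3c2, by 15.8, 19.7 and 30.8 times in the libraries labelled Gm12840-/- and by 10.9, 19.8 and 14.6 times in those labelled WT. With so few Nr3c2 reads the interval of the largest ratio, in Gm12840-/- 3, ran from 10.3 to 152. The difference of 0.53 on the log2 scale did not pass (exact permutation p = 0.3, adjusted 0.45). Hsd11b2, which inactivates glucocorticoids and so shields Nr3c2 from them, was at 19.8, 22.1 and 16.8 FPKM against 24.4, 16.4 and 26.9 FPKM, while Hsd11b1, which regenerates them, was at or below 0.13 FPKM in every library. Both were on the list of steroid synthesis genes. Hsd11b2 overlapped between the labels and was not called, and Hsd11b1 was under the filter. Both are named outside the rule for named genes, after their values were seen.

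**Figure D2:**
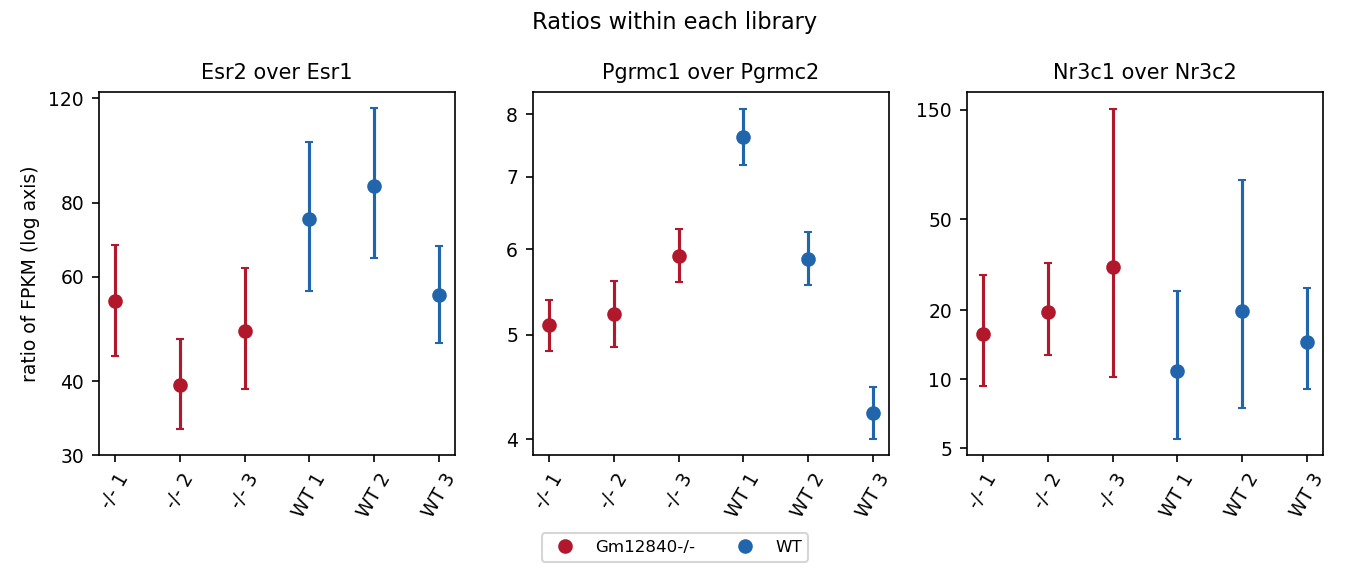
Ratios of FPKM within each library (vertical log axes) for Esr2 over Esr1, Pgrmc1 over Pgrmc2 and Nr3c1 over Nr3c2, with exact 95% counting intervals from the recovered reads. Red points are the libraries labelled Gm12840-/- and blue points those labelled WT; for Esr2 over Esr1 all 3 red points, at 39.4 to 54.5, lie below the blue ones, at 55.8 to 85.4.

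Fkbp5 is a chaperone partner that lowers the hormone binding of the glucocorticoid receptor, and its gene is itself switched on by glucocorticoids and progestins. It lies on chromosome 17, from 28399095 to 28517524 on the minus strand. Its level was 68.4, 67.3 and 112 FPKM in the libraries labelled Gm12840-/- 1, 2 and 3, against 68.9, 92.0 and 79.6 FPKM in those labelled WT 1, 2 and 3. Gm12840-/- 3 was the highest, Gm12840-/- 1 and 2 were the lowest, and the WT libraries lay between them. Fkbp5 averaged 82.5 ± 25.4 FPKM in the libraries labelled Gm12840-/- and 80.1 ± 11.5 FPKM in those labelled WT (SD, n = 3 each). The log2 fold change was 0.01, with 95% bounds of -0.72 and 0.74 (limma, adjusted p = 0.999). Without Gm12840-/- 3 it was -0.23, and without WT 1 it was -0.09.

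Nrip1, also called RIP140, recruits repressors to ligand-bound nuclear receptors. It lies on chromosome 16, from 76287400 to 76373827 on the minus strand. Its level was 3.85, 8.69 and 2.43 FPKM in the libraries labelled Gm12840-/- 1, 2 and 3, against 2.49, 2.07 and 3.40 FPKM in those labelled WT 1, 2 and 3. Gm12840-/- 2 stood well above all others, Gm12840-/- 3 lay among the WT libraries and Gm12840-/- 1 just above them. Nrip1 averaged 4.99 ± 3.29 FPKM in the libraries labelled Gm12840-/- and 2.65 ± 0.68 FPKM in those labelled WT (SD, n = 3 each). The log2 fold change of 0.59 was the largest of the members, with 95% bounds of -0.36 and 1.54 (limma, adjusted p = 0.993). It came to 0.18 without Gm12840-/- 2, so 1 library carried most of it.

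Prlr lies on chromosome 15, from 10177238 to 10349180 on the plus strand. Its span over the libraries, 5.10-fold, was the widest of the 7 tested members. Its level was 8.09, 22.9 and 4.48 FPKM in the libraries labelled Gm12840-/- 1, 2 and 3, on 2321, 6418 and 1059 reads. In the libraries labelled WT 1, 2 and 3 it was 5.64, 5.42 and 11.6 FPKM, on 1285, 1405 and 3897 reads. With 1059 or more reads in every library, counting error is small beside these differences, and the highest and lowest libraries carry the same label. Prlr averaged 11.8 ± 9.75 FPKM in the libraries labelled Gm12840-/- and 7.57 ± 3.53 FPKM in those labelled WT (SD, n = 3 each). The log2 fold change was 0.38, with 95% bounds of -0.97 and 1.74 (limma, adjusted p = 0.993). It turned to -0.20 without Gm12840-/- 2. Gm21973, a gene on the same strand that shares 203 exon bases with Prlr, had 0 reads in every library.

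**Figure D3:**
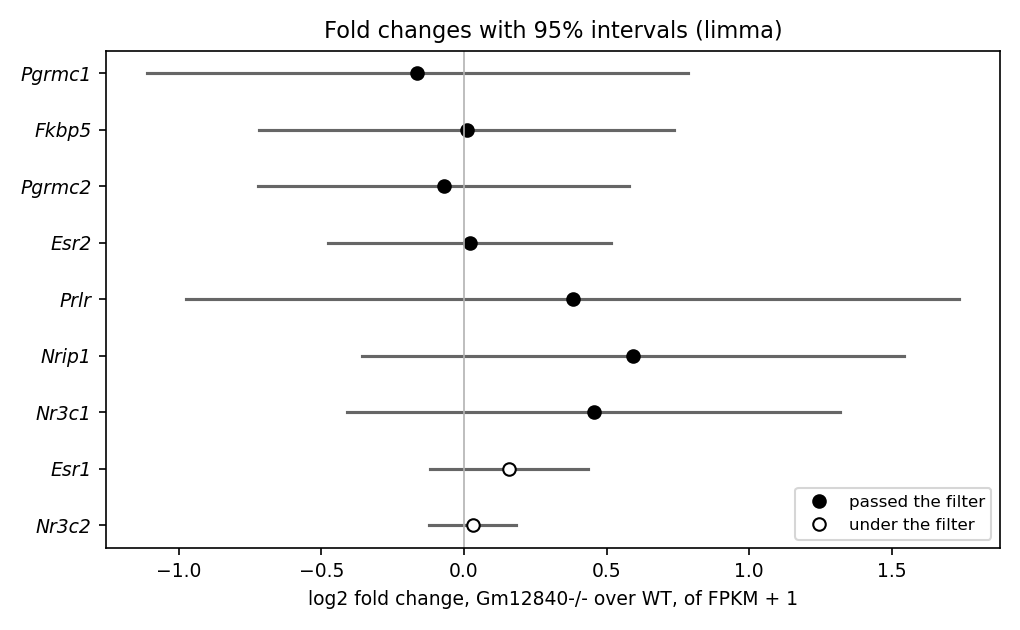
Log2 fold change of FPKM + 1, Gm12840-/- over WT (horizontal axis), for the 9 genes from top to bottom in order of level, with 95% intervals from limma. Filled points passed the filter and open points were read from the fit without one; every interval spans 0, the narrowest among the filled points being that of Esr2 and the widest that of Prlr.

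Across the 6 libraries several members were high or low in the same libraries, which carried both labels. Prlr, Nrip1 and Nr3c1 were highest in Gm12840-/- 2, with Gm12840-/- 1 and WT 3 in the next places. These are the 3 libraries with 1.52% or more mitochondrial reads, and those 3 genes stood lower in the 3 libraries with 0.311% or less. Pgrmc1 ran the other way. Esr2, over a span of 1.25-fold, and Nr3c2, on 3 to 21 reads, took the same order of libraries as Prlr. On log2(FPKM + 1) over the 6 libraries, Pearson's r was 0.97 between Nr3c1 and Nrip1, 0.95 between Prlr and Nr3c1, 0.94 between Prlr and Nrip1, and -0.95 between Prlr and Pgrmc1. Between Esr2 and Pgrmc1 it was -0.96. Fkbp5 followed the others least, with r between -0.64 and 0.63. These correlations describe 6 libraries that share their depth, scaling and quality, and carry no test.

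The same libraries differed in how level depended on gene length. The slope of log2 FPKM on log2 gene length was -0.0898, 0.0658 and -0.251 in the libraries labelled Gm12840-/- 1, 2 and 3, against -0.260, -0.213 and -0.0230 in those labelled WT 1, 2 and 3, so long genes stood highest where mitochondrial reads were most frequent. The deposited lengths of Prlr, Nrip1 and Nr3c1 were 15339, 11457 and 7425 bases, and that of Pgrmc1 was 1857 bases. Esr2, at 3368 bases, and Pgrmc2, at 3242 bases, were close in length, but their Pearson's r with Prlr was 0.95 and -0.93. Fkbp5, at 6363 bases, had an r of -0.60 with Prlr. With the length slope as a covariate, the log2 fold change of Prlr was -0.04 and that of Pgrmc1 was 0.08, the opposite signs to those without it. Esr2 and Pgrmc2 also turned, to -0.05 and 0.05. Nrip1, Nr3c1 and Fkbp5 kept their sign, at 0.33, 0.21 and 0.11. The slope was computed from the same FPKM values and is not a measure of RNA quality. The part of RNA quality in the members' levels was not tested.

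**Figure D4:**
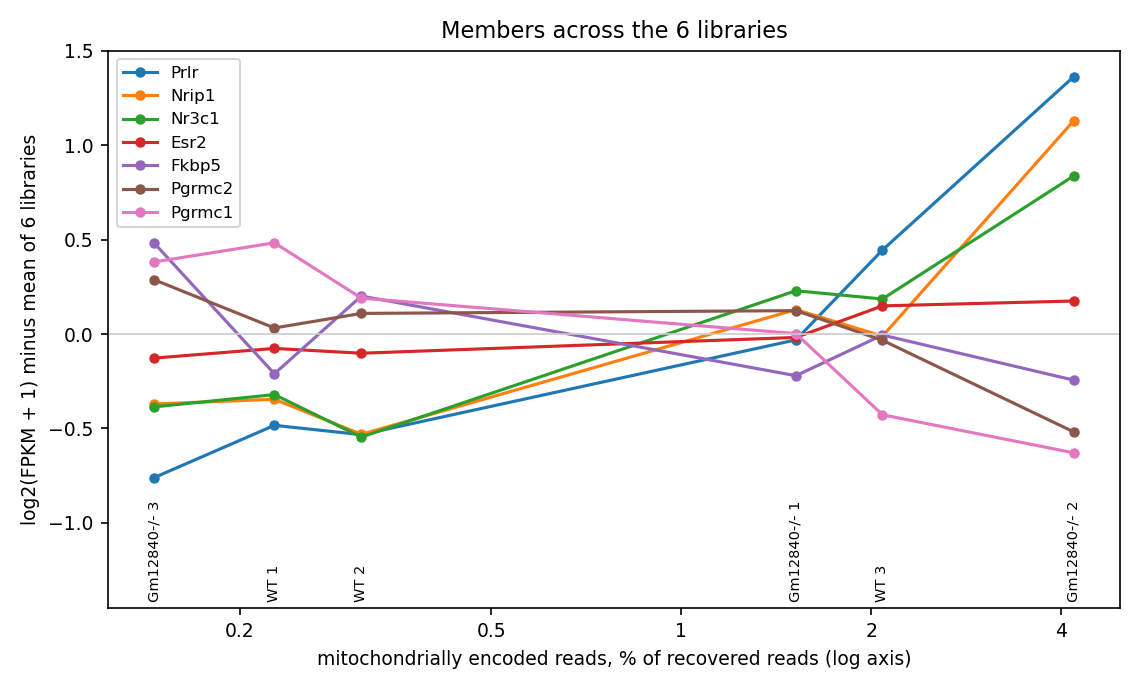
Deviation of log2(FPKM + 1) from the mean of 6 libraries (vertical axis) for the 7 tested members, against the percentage of mitochondrially encoded reads in each library (horizontal log axis, libraries named above it). Prlr, Nrip1 and Nr3c1 lie below 0 in the 3 libraries at 0.146% to 0.311% and highest in Gm12840-/- 2 at 4.19%, Pgrmc1 and Pgrmc2 are lowest there, and Esr2 stays near 0.

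Leaving out both libraries numbered 3, one of each label, set the Gm12840-/- libraries with more mitochondrial reads (1.52% and 4.19%) against the WT libraries with fewer (0.227% and 0.311%). With these 4 libraries, limma called 27.6% of all tested genes, 1409 higher and 2042 lower in the libraries labelled Gm12840-/-. It called 2 of the 7 members, about the same share as among all genes: Nr3c1, at a log2 fold change of 0.97 with an adjusted p of 0.0372, and Nrip1, at 1.07 with an adjusted p of 0.0425. Prlr was at 1.17 with an adjusted p of 0.0549. Fkbp5 was at -0.23 and Pgrmc1 at -0.65, with adjusted p of 0.574 and 0.185 by limma. In these 4 libraries the label and the mitochondrial share cannot be told apart.

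The genes whose pattern over the 6 libraries was most like a member's were taken by the highest Pearson's r of log2(FPKM + 1). For Esr2 they were Esrp1 and Gnl3l, both at 0.999. For Prlr they were Agfg1 at 0.999 and Mdn1 at 0.998, for Nr3c1 Cntrl at 0.999 and Rwdd2a at 0.997, and for Nrip1 Vps13a at 0.996 and Cd44 at 0.995. Those of Pgrmc1 were Zfp653 and Rac3, both at 0.998, those of Pgrmc2 were Trappc3 at 0.997 and the microRNA gene Mir212 at 0.995, and those of Fkbp5 were Zer1 at 0.984 and Tprn at 0.978. Such values were common: 2038 genes had r over 0.9 with Prlr, 2783 with Pgrmc1, 1822 with Esr2, 1804 with Nr3c1 and 1039 with Nrip1, while 199 did with Pgrmc2 and 78 with Fkbp5.

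Lists of genes that act with these receptors were then counted. None held a called gene, and their medians lay on both sides of the median of -0.04 over all tested genes. Of the related nuclear and membrane receptors, 11 of 18 passed the filter, 4 positive and 7 negative, with a median log2 fold change of -0.20. Pgr, the nuclear progesterone receptor that the ovulatory surge induces in granulosa cells, was at 1.95, 6.11 and 1.53 FPKM in the libraries labelled Gm12840-/- 1, 2 and 3, against 7.54, 3.82 and 6.19 FPKM in those labelled WT 1, 2 and 3. Gm12840-/- 1 and 3 were below all WT libraries and Gm12840-/- 2 was among them, and the log2 fold change of -0.83 had an adjusted p of 0.993 by limma. Nr5a1, the orphan receptor SF-1 that drives steroid enzyme genes, was at 41.0, 35.3 and 54.4 FPKM against 53.4, 53.7 and 53.3 FPKM. The WT libraries were within 1 FPKM of each other, and Gm12840-/- 3 was above them. Nenf, a secreted relative of the Pgrmc proteins, was the most abundant of the list and spanned 59.6 to 487 FPKM against 80.2 to 476 FPKM.

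Co-regulators had the highest median of the lists, 0.35, with 19 of 21 tested, 13 positive and 6 negative. Ncoa1, a p160 co-activator of steroid receptors, was at 2.55, 6.14 and 1.30 FPKM in the libraries labelled Gm12840-/- 1, 2 and 3, against 1.01, 0.759 and 3.13 FPKM in those labelled WT 1, 2 and 3. Its relative Ncoa2 was at 1.98, 4.37 and 0.976 FPKM against 0.611, 0.802 and 2.33 FPKM. Both were highest in Gm12840-/- 2, as Prlr and Nr3c1 were. Prmt1, an arginine methyltransferase that acts as a co-activator, took the order of Pgrmc1, at 107, 65.3 and 182 FPKM against 185, 164 and 88.0 FPKM.

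Chaperones of the receptor complex were abundant, and all 16 passed the filter, 5 positive and 11 negative, with a median of -0.08. Hsp90ab1, the heat shock protein that holds steroid receptors ready to bind hormone, was at 840, 665 and 1003 FPKM against 1033, 1042 and 848 FPKM. Fkbp4, which takes the place of Fkbp5 in the complex and favours hormone binding, was at 160, 107 and 336 FPKM against 395, 311 and 158 FPKM. The ubiquitin ligase Stub1 was at 34.0, 20.9 and 51.8 FPKM against 51.2, 57.1 and 33.3 FPKM. All 3 overlapped between the labels.

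Glucocorticoid receptor targets, 18 of 18 tested, were 12 positive and 6 negative with a median of 0.05. Zbtb16, a transcription factor gene induced by glucocorticoids and progestins, was at 4.87, 10.9 and 3.31 FPKM in the libraries labelled Gm12840-/- 1, 2 and 3, against 1.27, 3.26 and 7.48 FPKM in those labelled WT 1, 2 and 3. Ddit4, a stress-responsive inhibitor of mTOR, was at 64.6, 71.7 and 91.8 FPKM against 62.1, 117 and 225 FPKM, where WT 3 was far above the rest. Mt1, a metallothionein and the most abundant of the list, ran from 557 to 2074 FPKM against 579 to 1741 FPKM.

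Oestrogen receptor targets, 15 of 16 tested, were 8 positive and 7 negative with a median of 0.17. The groups did not overlap in 2 of the 15, beside 3.53% of all genes tested, and 1 of these had an unadjusted p under 0.05, beside 0.728%. Whether so short a list differs from all genes in these shares was not tested. Kctd14 was at 11.0, 11.7 and 9.41 FPKM in the libraries labelled Gm12840-/- 1, 2 and 3, against 6.82, 7.12 and 7.08 FPKM in those labelled WT 1, 2 and 3. Its log2 fold change was 0.54, with an unadjusted limma p of 0.0238 and an adjusted p of 0.993. Igfbp4, a binding protein that restrains IGF action in the follicle, was at 39.7, 30.4 and 52.9 FPKM against 27.0, 28.0 and 17.8 FPKM. Every library labelled Gm12840-/- was above every WT one, by a log2 fold change of 0.73 (limma, adjusted p = 0.993). Ctsd, the lysosomal protease cathepsin D, was the most abundant of the list, at 168, 93.2 and 538 FPKM against 517, 297 and 111 FPKM.

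Prolactin receptor signalling had 16 of 18 genes tested, 10 positive and 6 negative, with a median of 0.15. Prl, the ligand, had 0 reads in every library, which allows up to 0.0976 to 0.144 FPKM at 3 reads. Jak2, the kinase bound to the receptor, was at 9.67, 12.0 and 5.44 FPKM in the libraries labelled Gm12840-/- 1, 2 and 3, against 6.74, 6.20 and 10.05 FPKM in those labelled WT 1, 2 and 3. Socs2, a feedback inhibitor of cytokine receptors, was the most abundant of the list, at 41.3, 63.5 and 32.2 FPKM against 34.7, 44.1 and 68.2 FPKM. Jak2 and Socs2 were thus high in the same libraries as Prlr, Gm12840-/- 2 and WT 3. Ghr, the growth hormone receptor of the same receptor class, was at 3.16, 4.37 and 2.77 FPKM against 2.54, 1.35 and 2.96 FPKM, and Sos1, an exchange factor for Ras, at 3.17, 6.37 and 1.92 FPKM against 1.45, 1.41 and 3.68 FPKM. Jak2 is named outside the rule for named genes, after its values were seen.

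Of the genes that make or inactivate steroid ligands, 15 of 18 were tested, 6 positive and 9 negative, with a median of -0.08. The groups did not overlap in 2 of the 15, beside 3.53% of all genes tested, and whether these shares differ was not tested. Sult1e1, which inactivates oestrogens by sulfation, was at 777, 649 and 862 FPKM in the libraries labelled Gm12840-/- 1, 2 and 3, against 1768, 1462 and 926 FPKM in those labelled WT 1, 2 and 3. Hsd3b1, which makes progesterone, was at 1112, 1122 and 1259 FPKM against 1631, 1553 and 1316 FPKM. In both genes all libraries labelled Gm12840-/- were below all WT ones, with log2 fold changes of -0.82 and -0.36, yet neither was called (adjusted p of 0.993 each by limma). The oestradiol-making aromatase Cyp19a1 had 2.96, 6.23 and 3.73 FPKM against 14.4, 7.16 and 5.39 FPKM. Gm12840-/- 2 and WT 3 crossed, and its log2 fold change of -0.86 also had an adjusted p of 0.993.

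**Figure D5:**
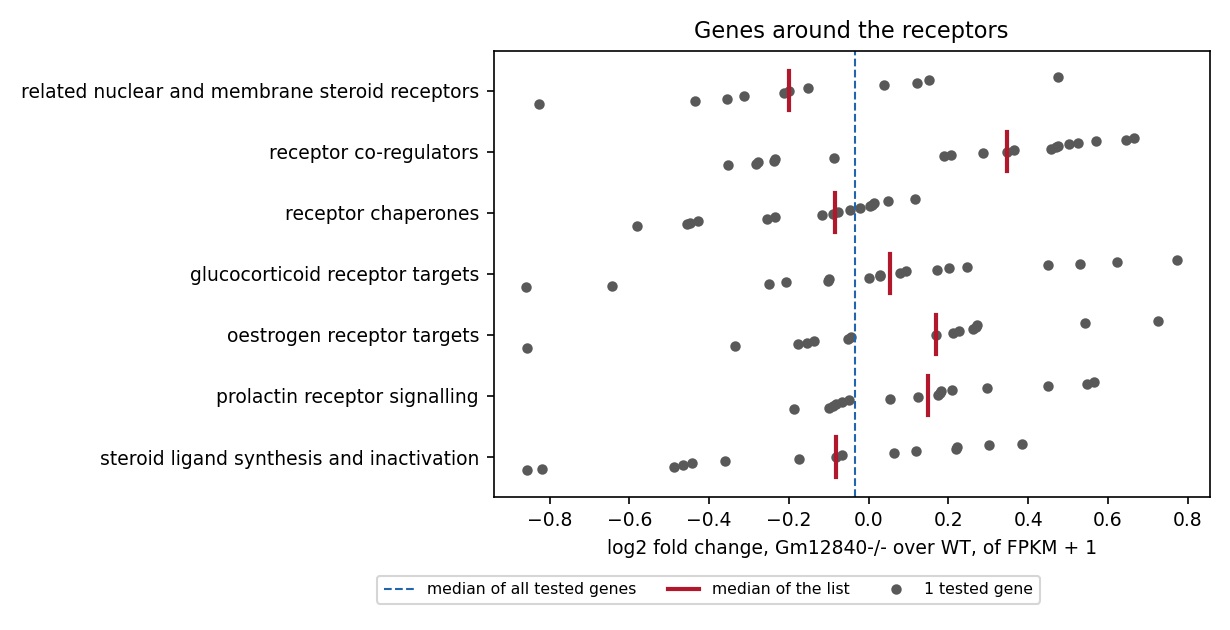
Log2 fold changes of FPKM + 1, Gm12840-/- over WT (horizontal axis), of the tested genes in 7 lists (1 grey point each, spread vertically for visibility). Red bars are list medians and the dashed line is the median of all tested genes, -0.04; list medians run from -0.20 for the related receptors to 0.35 for the co-regulators.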

How the data were processed

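RNA of granulosa cells was measured in 6 libraries; per the labels' protocols, the TruSeq RNA kit was used, which leaves the strand of a read unmarked. Each library has 1 table of FPKM values deposited by the authors, covering 54551 features (750 unnamed) with their coordinates and lengths. The submitters' processing notes name HISAT2 2.0.5 and mm10. How reads were counted and scaled, and on which annotation, is not given in the sources used here. The deposited lengths equalled the summed exons of GENCODE M21 for 7 of the 9 members.

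Multiplied by length, 100% of the deposited FPKM values fell within 0.01 reads of a whole number of reads, from which read numbers were recovered. The library totals behind the authors' FPKM were 0.894 to 1.12 times the recovered reads. Intervals on reads are exact, at 95%, and cover counting error only.

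The plan allowed for counts or FPKM. With FPKM, limma 3.58.1 in R 4.3.3 was fitted to log2(FPKM + 1) with a trend and genotype as the only term, on genes over 1 FPKM in at least 3 libraries. This scale understates changes of low genes. P-values are two-sided, adjusted by Benjamini-Hochberg over all genes tested, with a threshold of 0.05. The script was tested on simulated counts, drawn without the shared component that separates these libraries. That test does not show what could be detected in them. Ratios were compared by exact permutation. Members and lists were chosen with earlier results of these data known. Named genes were the members, Gm12840, each list's most abundant gene and its 2 tested genes with the smallest unadjusted p, and the 2 genes most correlated with each tested member. Other genes named were chosen after their values were seen. Marker lists of 8 cell types were read from the same fit. Figures were drawn with matplotlib 3.10.9.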

Additional observations from a re-analysis of the deposited data

How the results depend on the processing

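The count of 0 called genes and 0 called members was the same with a pseudocount of 0.1, filters at 5 FPKM or none, library totals, limma-voom, protein-coding genes and each library left out. The numbers were not taken as pairs, since the labels do not say that a number marks a shared litter, batch or day. Same-numbered libraries deviated in opposite directions (correlations of -0.42, -0.67 and -0.89) and 0 correlated best with their own number, which does not settle whether they are pairs. With the replicate block, 0 genes were called. The length slope as a covariate called 1 gene. Without both libraries numbered 3, 3451 genes were called, 27.6% of all genes tested. Among them were 2 of 7 tested members, 2 of 11 related receptors, 8 of 19 co-regulators and 5 of 16 chaperones. Of the other lists, 5 of 18 glucocorticoid targets, 2 of 15 oestrogen targets, 4 of 16 of prolactin signalling and 1 of 15 of steroid synthesis were called. The called genes include Nenf, Ncoa1, Ncoa2, Stub1, Fkbp4, Zbtb16, Ctsd and Sos1. Limma's log2 fold changes of Fkbp5 and Socs2 were then -0.23 and 0.38.

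Signs turned as follows, none past the threshold. With the length slope, the log2 fold changes were -0.054 for Esr2, -0.0054 for Nr3c2, 0.085 for Pgrmc1, 0.054 for Pgrmc2, -0.042 for Prlr, 0.15 for Gm12840, 0.28 for Nenf, 0.22 for Mt1 and 0.27 for Ctsd. With library totals they were 0.011 for Pgrmc2 and 0.0047 for Gm12840, and with limma-voom 0.019 for Gm12840. Leaving out 1 library at a time gave -0.063 to 0.10 for Esr2 (negative without Gm12840-/- 2, WT 1 or WT 2), -0.012 to 0.084 for Nr3c2 (without Gm12840-/- 2 or WT 2), -0.42 to 0.11 for Pgrmc1 (positive without Gm12840-/- 2 or WT 1), -0.23 to 0.17 for Pgrmc2 and -0.20 to 0.86 for Prlr (both turned without Gm12840-/- 2), and -0.23 to 0.13 for Fkbp5. Ranges were -0.27 to 0.28 for Gm12840, -1.26 to 0.25 for Nenf, -0.72 to 0.0098 for Prmt1, -0.78 to 0.18 for Mt1, -1.03 to 0.23 for Ctsd, -0.36 to 0.16 for Socs2, and -0.31 to 0.12 for the log2 ratio of Pgrmc1 to Pgrmc2. The causes were not tested. Esr1, Nrip1 and Nr3c1 kept their sign under every alternative, at 0.09 to 0.58, 0.18 to 1.07 and 0.15 to 0.97, with adjusted p of 0.336 to 1, 0.0425 to 1 and 0.0372 to 1. Depth limits Esr1 and Nr3c2, at 51 to 146 and 3 to 21 reads.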
